A study of Mus musculus with 22 samples.

Results

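The RNA of neuronal and glial nuclei was compared in the sham hippocampus, in the count columns SLp (sham, NeuN+) and SLn (sham, NeuN-). These are 5 of the 11 mRNA libraries of the series, 3 of sham neurons and 2 of sham glia. NeuN is the nuclear protein encoded by Rbfox3, a splicing regulator that most mature neurons make and glia do not, so an antibody against it separates neuronal nuclei from the rest. The NeuN- nuclei come from the other brain cells. Oligodendrocytes wrap axons in myelin, astrocytes clear transmitter and potassium from the synaptic space, microglia are the resident macrophages, and a few vascular cells are also present. NeuN is weak or missing in some neurons, among them Cajal-Retzius cells, whose nuclei then sort with glia.

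The mice were adult C57/BL6N males that received NaCl above the right hippocampus, and hippocampi were taken 24 h later. The study's methods and the description of the count table give the left side for these libraries, whereas the extraction protocol in the labels names the right. The 8 sham mice were combined into 3 pools, and each pool was sorted into a NeuN+ and a NeuN- sample, so that samples with the same replicate number come from the same mice. An mRNA library of the NeuN- sample of pool 2 was not analysed here, which leaves pools 1 and 3 with both fractions. The 6 libraries of mice given kainate in place of NaCl entered the model to estimate the spread and were used to look at the same contrast in other mice.

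Totals of the 5 libraries ran from 12058875 counts (glia replicate 3) to 34995607 (neurons replicate 2). Glia replicate 1 was made from 0.05 ng of RNA with 15 PCR cycles, against 1 ng and 10 cycles for the other 4 sham libraries. Glia replicate 3 held 3737 CPM (counts relative to the library total, before normalization) from olfactory receptor genes, while the other 4 held 241 to 872. It also had counts in 48618 genes, against 37158 in glia replicate 1. Neurons replicate 1, from the same mice as glia replicate 1, likewise had counts in fewer genes (39129) than the other neuron libraries (46756 and 46812). The share of mitochondrially encoded genes was 0.0610% and 0.176% in the replicates 1 of neurons and glia and 0.00939% to 0.0228% in the other 3 libraries. The libraries thus differed by replicate number in both fractions. The kainate libraries, from other mice, differed by number in the same direction. Their replicates 1 had counts in 40325 (neurons) and 41933 (glia) genes and mitochondrial shares of 0.0519% and 0.169%. Kainate glia replicate 3 held 3701 CPM from olfactory receptor genes. What these differences come from was not tested. For many results that lean on one library, the outcome without it is also given.

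The markers of the sort lay on the side of their cell type in every library. Rbfox3 (chromosome 11, 118489762 to 118911597, GRCm38) was at 278, 213 and 197 normalized CPM in neurons and at 26.3 and 36.1 in glia, a log2 fold change (neurons over glia) of 2.88 ± 0.46 (SE, adjusted p = 0.00188). Mbp, myelin basic protein of oligodendrocytes, was at 109, 117 and 139 in neurons and at 4705 and 1762 in glia (-4.73 ± 0.62, adjusted p = 0.00139). Cx3cr1, the microglial receptor for fractalkine, was at 4.90, 4.77 and 6.22 against 564 and 112 (-6.00 ± 0.65, adjusted p = 0.00139). The groups did not overlap for any of these 3 genes, and both glial markers were higher in glia replicate 1 than in glia replicate 3. The span of Cx3cr1 overlaps that of Wdr48.

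Aldh1l1, a folate enzyme used as an astrocyte marker, was at 1.75, 7.49 and 8.74 normalized CPM in neurons and at 41.1 and 25.6 in glia (-2.46 ± 0.62, adjusted p = 0.0216). Its call was lost without glia replicate 1 (adjusted p = 0.113) and without neurons replicate 2 (adjusted p = 0.0555). Pdgfrb, a receptor of pericytes, was at 3.36, 4.88 and 7.87 against 47.0 and 17.3 (-2.57 ± 0.61, adjusted p = 0.0158). That call was lost with the pool of mice as a block (adjusted p = 0.0575) and without glia replicate 1, neurons replicate 1 or neurons replicate 2 (adjusted p = 0.165, 0.0631 and 0.0677). Pecam1, an adhesion protein of endothelium, was low throughout, at 0.671, 4.05 and 3.55 in neurons and 2.88 and 7.98 in glia, with overlapping groups (-0.96, adjusted p = 0.623). These are levels in pooled nuclei, in which fewer nuclei of a type and less RNA per nucleus cannot be told apart.

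**Figure D1:**
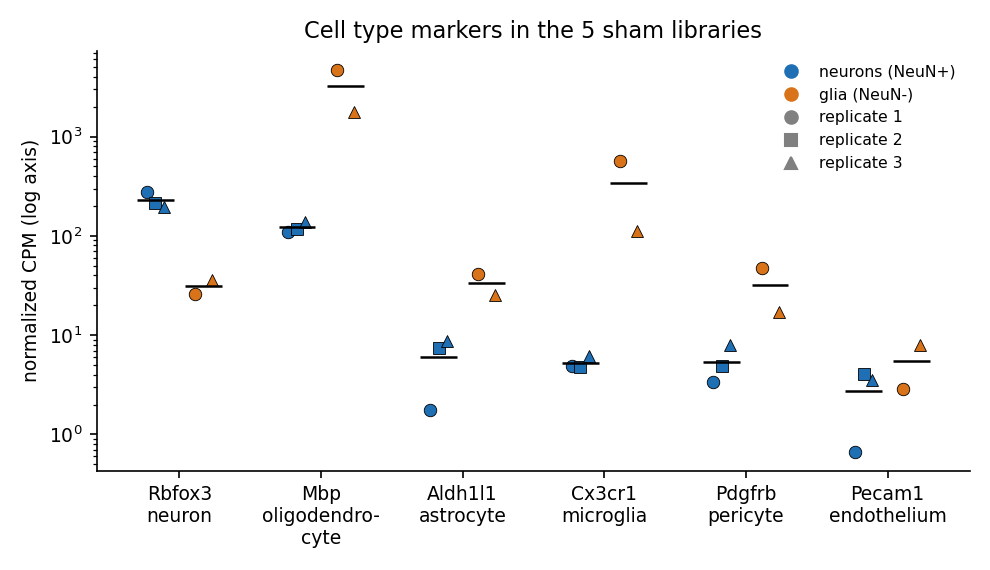
Normalized CPM (log axis) of 6 cell type markers in the 3 neuron and 2 glia libraries of sham hippocampus. Each point is a library, its shape the replicate, and the bar the group mean; Rbfox3 is higher in all 3 neuron libraries, Mbp, Aldh1l1, Cx3cr1 and Pdgfrb are higher in both glia libraries, and the groups overlap for Pecam1.

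Of 40714 genes tested, 1915 were higher in sham neurons (4.70%) and 1698 lower (4.17%) at a false discovery rate (FDR) below 0.05, 8.87% in all. The libraries of both groups did not overlap for any of the 3613 called genes. Over all genes tested, the neuron libraries lay wholly above the glia libraries in 14.4% and wholly below in 12.5%. The higher genes had a median log2 fold change of 2.27, and 1242 of them differed by at least 4-fold and 37 by at least 16-fold. The lower genes had a median of -2.89, and 1404 differed by at least 4-fold and 378 by at least 16-fold. The median over all genes tested was -0.37, and it was 0.62 without glia replicate 3.

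Both counts depended on the model. With the pool of mice as a block, 4270 genes were higher and 2502 lower, and 1909 of the 1915 higher and 1655 of the 1698 lower genes remained. With scaling factors from abundant protein-coding genes, an alternative chosen after seeing the data, the median over all genes moved to -0.93, with 1513 genes higher and 2711 lower, and 1134 of the higher and 1638 of the lower genes remained. At an FDR below 0.25, 9.11% of genes were higher and 7.63% lower. Leaving out glia replicate 1 gave 1108 higher and 708 lower genes, with 1037 and 697 shared with the counts above, and without neurons replicate 1 there were 1256 higher genes. Without glia replicate 3, 1165 of the higher and 1609 of the lower genes remained. With the sham libraries alone 1052 and 1466 remained, and without both low-input libraries (glia replicate 1 and a kainate library) 470 and 460. Each of these libraries thus decided part of the calls.

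**Figure D2:**
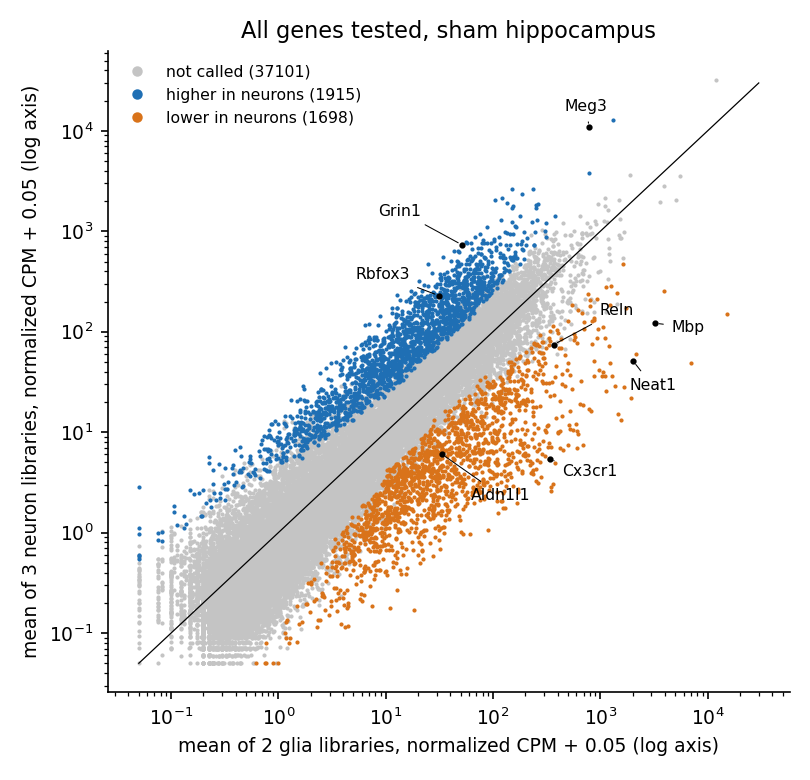
Mean normalized CPM of the 40714 genes tested in 3 sham neuron libraries (vertical) and 2 sham glia libraries (horizontal), on log axes with 0.05 added. The line marks equal levels, and colors mark the 1915 genes called higher and the 1698 called lower in neurons; Mbp and Cx3cr1 lie farther from the line than Rbfox3 and Grin1.

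The neuronal genes of smallest p included receptors, channels and RNA-binding proteins. Grin1, the obligatory subunit of NMDA glutamate receptors, was at 885, 740.3 and 578 normalized CPM in neurons and at 46.8 and 55.7 in glia (log2 fold change 3.84 ± 0.50). Cacna1h, a T-type calcium channel whose span overlaps that of Tpsg1, was at 211, 192 and 236 against 23.4 and 29.6 (3.00 ± 0.42). Atp2b3, a calcium pump of the plasma membrane, was at 236, 179 and 209 against 18.7 and 24.9 (3.25 ± 0.44). In these 3 genes every neuron library lay far above both glia libraries.

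Celf5, an RNA-binding protein, was at 195, 117 and 138 normalized CPM in neurons and at 12.8 and 15.7 in glia (3.40 ± 0.46). Miat, a nuclear long noncoding RNA, was at 919.6, 898 and 977 against 61.9 and 89.7 (3.62 ± 0.49), with neuron libraries close to each other. Hs3st4, a heparan sulfate sulfotransferase, was at 62.2, 41.8 and 47.2 against 3.77 and 5.21 (3.48 ± 0.46). Rasgef1a, Iqgap2, Pdlim7, Insyn1 and Ccsap had log2 fold changes between 2.95 and 3.58, and each of the 12 named genes of smallest p had an adjusted p of 0.00139. Insyn1 encodes a protein of inhibitory synapses. Ccsap, a protein of centrioles and spindles, and Cpne7 overlap the span of the model Gm20388.

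The largest neuronal folds, among named genes with a mean of at least 10 normalized CPM, included calcium-binding and adhesion proteins. Cpne6 and Cpne7 encode copines, which bind membranes in response to calcium. Cpne6 was at 3321, 1748 and 2892 normalized CPM in neurons and 92.8 and 206 in glia (4.15 ± 0.72), and Cpne7 at 2574, 1633 and 1900 against 57.3 and 150.5 (4.29 ± 0.73). Camkv, a pseudokinase related to CaM kinases, was at 2401, 2150 and 1828 against 84.2 and 158 (4.13 ± 0.69). Icam5, the adhesion molecule telencephalin of forebrain dendrites, was at 745, 439.5 and 495 against 23.5 and 44.4 (4.04 ± 0.66). In these 4 genes glia replicate 3 was higher than glia replicate 1.

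Sstr4, a somatostatin receptor, was at 124, 104 and 128 normalized CPM in neurons and 2.88 and 11.1 in glia (4.08 ± 0.79, adjusted p = 0.00487). Epha6, an ephrin receptor, was at 409.7, 466 and 548 against 7.16 and 41.9 (4.27 ± 0.98, adjusted p = 0.0128). Slc26a10, whose span overlaps that of B4galnt1, and the receptor kinase Ltk had log2 fold changes of 4.20 and 4.05. The call of Epha6 was lost without glia replicate 1 (adjusted p = 0.0718) and with the scaling from abundant genes (adjusted p = 0.0911), and that of Slc26a10 with this scaling (adjusted p = 0.0546). Without both low-input libraries (glia replicate 1 and a kainate library) the calls of Sstr4, Slc26a10 and Epha6 were lost (adjusted p = 0.0567, 0.0606 and 0.119).

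The glial genes of smallest p included Cx3cr1 and Csf1r of the microglia list. Csf1r, the receptor that microglia need to survive, was at 7.99, 12.2 and 12.02 normalized CPM in neurons and at 825 and 211 in glia (-5.59 ± 0.63). Siglech, a lectin of microglia, was at 1.07, 1.87 and 2.16 against 198 and 58.0 (-6.21 ± 0.68), and Fyb, an adaptor protein of immune cells, at 1.81, 2.70 and 1.90 against 43.1 and 25.9 (-4.003 ± 0.41). Unc93b1, which carries Toll-like receptors to endosomes, Inpp5d, a phosphatase of immune signaling, and Ly86 had log2 fold changes of -5.20, -3.85 and -4.54. Glia replicate 1 was higher than glia replicate 3 in each of these 6 genes, and both lay above all neuron libraries.

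Hapln2, a link protein of the matrix at nodes of Ranvier, was at 18.6, 23.3 and 45.4 normalized CPM in neurons and 1913 and 826 in glia (-5.55 ± 0.66). Carns1, which makes carnosine, was at 8.66, 11.2 and 8.48 against 272 and 126 (-4.40 ± 0.49). Tmem98, Tmem125 and Epb41l2 had log2 fold changes of -6.20, -6.01 and -3.39. With Cx3cr1 these are the 12 named glial genes of smallest p, each with an adjusted p of 0.00139.

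The largest glial folds among named genes with a mean of at least 10 normalized CPM in glia included those of myelin and secreted proteins. Ptgds, a synthase of prostaglandin D, was at 54.3, 28.4 and 65.0 normalized CPM in neurons and at 12540 and 1405 in glia (-7.14 ± 1.02). Cldn11, which seals myelin layers, was at 2.95, 1.92 and 2.77 against 636 and 60.1 (-7.10 ± 1.00). Mag, the myelin-associated glycoprotein, was at 9.87, 24.9 and 31.1 against 3163 and 678 (-6.45 ± 0.94). Mal, Fa2h, the lipocalin Apod and the hyaluronan-binding protein Tnfaip6 had log2 fold changes from -6.95 to -6.53. Glia replicate 1 exceeded glia replicate 3 in each of these genes, and each had an adjusted p of at most 0.0015. The sizes moved between the alternative runs. They ran from -7.99 to -4.79 for Ptgds, from -7.97 to -4.53 for Cldn11 and from -7.75 to -4.45 for Apod. Fa2h ran from -7.21 to -5.16, so the order of these genes may differ between runs.

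The 250 bases before the start sites of the leading genes were searched for 2 short motifs that are known from neuronal and oligodendrocyte genes. RefSeq windows (GRCm38.p6) were found for 15 of 20 leading genes on each side. The core of the cAMP response element, TGACGT or its reverse complement, was in 0 of 21 neuronal and 0 of 17 glial windows, and 6.47% of all 32851 windows hold it. The Sox core, ACAAAG or its reverse complement, was in windows of 1 of 15 neuronal genes (Celf5) and 3 of 15 glial genes, against 18.6% of all 27025 genes with a window. The overlapping windows of Mag hold the same match. Shares among so few genes are descriptions, and a match is no sign of binding. The 3 glial genes with a match are shown 5′ to 3′ on the gene's strand, with the match in capitals, so that its place before the start site can be seen. The match begins 67 bases before the start for Mag, 84 for Apod and 47 for Ly86, and for Mag the window before its more upstream start site is given.
Mag, chr7:30914923-30915172, minus strand: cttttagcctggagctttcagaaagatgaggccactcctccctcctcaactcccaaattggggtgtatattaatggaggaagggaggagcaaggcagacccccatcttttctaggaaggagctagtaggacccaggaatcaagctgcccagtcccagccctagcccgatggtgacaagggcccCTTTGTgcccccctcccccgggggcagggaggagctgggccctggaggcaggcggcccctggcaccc
Apod, chr16:31314809-31315058, minus strand: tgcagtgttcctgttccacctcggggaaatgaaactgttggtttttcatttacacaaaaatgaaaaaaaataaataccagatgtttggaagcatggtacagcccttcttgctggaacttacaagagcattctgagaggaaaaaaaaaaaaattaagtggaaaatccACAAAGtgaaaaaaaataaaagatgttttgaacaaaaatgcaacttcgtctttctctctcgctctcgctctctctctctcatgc
Ly86, chr13:37345095-37345344, plus strand: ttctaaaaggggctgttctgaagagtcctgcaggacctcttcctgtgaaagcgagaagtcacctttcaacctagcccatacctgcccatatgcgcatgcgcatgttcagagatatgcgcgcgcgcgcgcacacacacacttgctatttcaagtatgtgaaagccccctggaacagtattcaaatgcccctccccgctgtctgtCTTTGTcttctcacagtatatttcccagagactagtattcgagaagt

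The levels of marker genes were compared by lists. The first 3 members of each list and those that went against it are named by rule, and other members were named after their values were seen. Of 12 general neuron markers, 8 were higher in neurons and 0 lower, with a median log2 fold change of 2.06. Syt1, the calcium sensor of release, was at 1950, 914 and 832 normalized CPM in neurons and 185 and 115 in glia (3.04 ± 0.57, adjusted p = 0.00399). Snap25, of the vesicle fusion complex, was at 1073, 670.2 and 493 against 250.1 and 118 (2.02 ± 0.52, adjusted p = 0.0237), a call lost without glia replicate 3 (adjusted p = 0.126) or neurons replicates 1 or 2 (adjusted p = 0.0899 and 0.0519). Of 8 glutamatergic markers 5 were higher (median 2.99), among them Slc17a7, the vesicular glutamate transporter of pyramidal cells (3.804), and Camk2a (3.22).

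Markers of single hippocampal fields were called in part. Grik4, Bok, Rgs14 and Amigo2 made 4 of 6 CA3 and CA2 genes higher, Fibcd1 and Mpped1 made 2 of 4 CA1 genes higher, and C1ql2 and Trpc6 made 2 of 6 dentate granule genes higher. Without glia replicate 3 the CA1 and dentate counts were 1 and 1, and without glia replicate 1 the CA3 and CA2 count was 2. The call of Bok was lost without neurons replicate 1 (adjusted p = 0.16), glia replicate 1 (adjusted p = 0.157) or glia replicate 3 (adjusted p = 0.0863) and with the scaling from abundant genes (adjusted p = 0.315). Prox1, the transcription factor of granule cells, was at 163, 149 and 153 normalized CPM in neurons and 207 and 81.8 in glia, with overlapping groups (0.10, adjusted p = 0.932).

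Of 13 interneuron markers 5 were higher and 0 lower (median 1.66), and 9 were higher with the pool as a block. Gad1, which makes GABA, was at 230.0, 127 and 96.7 normalized CPM in neurons and 42.6 and 25.8 in glia (2.15 ± 0.47, adjusted p = 0.0101), and Gad2 at 94.3, 53.0 and 44.5 against 24.9 and 15.8 (1.65 ± 0.42, adjusted p = 0.0239). Both calls were lost without glia replicate 3 (adjusted p = 0.0654 and 0.132), and that of Gad2 also without neurons replicate 1 (adjusted p = 0.0939). The interneuron count was 3 without neurons replicate 1 and 2 without glia replicate 3.

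Cajal-Retzius markers went the other way, with 0 of 6 higher and 4 lower in NeuN+ nuclei (median -2.36). Reln (chromosome 5, 21884454 to 22344702), the secreted protein reelin, was at 74.5, 74.9 and 73.8 normalized CPM in neurons and at 505 and 229.9 in glia (-2.31 ± 0.43, adjusted p = 0.00394). The neuron libraries of Reln were almost equal and lay wholly below the glia libraries. Trp73, a transcription factor of the p53 family, was at 3.16, 8.13 and 6.58 against 37.2 and 27.1 (-2.42 ± 0.47, adjusted p = 0.00462), Lhx1 had a log2 fold change of -2.97 and Ndnf one of -3.23. Without glia replicate 1 the count was 1 of 6, and Reln (adjusted p = 0.0567) and Lhx1 (adjusted p = 0.0652) were not called. When the low-input kainate library was left out as well, 0 of 6 were called, and Trp73 was not (adjusted p = 0.0705).

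Of 7 markers of immature neurons 1 was called, where 8.87% of all genes tested were called. Doublecortin (Dcx) was higher at 88.4, 72.5 and 40.7 normalized CPM in neurons against 27.4 and 20.6 in glia (1.49 ± 0.43, adjusted p = 0.0481). This call was lost without neurons replicates 1 or 2 (adjusted p = 0.155 and 0.12), without glia replicates 1 or 3 (adjusted p = 0.101 and 0.179) and with the scaling from abundant genes (adjusted p = 0.0883). The list median was -1.07, and with the pool as a block 2 genes were higher and 1 lower.

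The glial lists were lower almost whole. All 15 oligodendrocyte markers were lower in neurons (median log2 fold change -6.03), all 11 markers of oligodendrocyte precursors (-4.79), 17 of 18 microglia markers (-5.59) and 13 of 15 astrocyte markers (-3.76). Pdgfra, the receptor that marks precursors, was at 3.89, 11.7 and 13.9 normalized CPM in neurons and 627 and 181 in glia (-5.36 ± 0.88), P2ry12, a purine receptor of microglia, at 4.36, 2.44 and 2.90 against 437 and 66.2 (-6.29 ± 0.75), and Slc1a3, the astrocyte glutamate transporter GLAST, at 31.6, 26.5 and 61.6 against 1707 and 408 (-4.73 ± 0.85). Without both low-input libraries (glia replicate 1 and a kainate library) the log2 fold change of Slc1a3 was -3.31. The exceptions were Aif1 of microglia (-1.95, adjusted p = 0.0835) and the astrocyte genes Slc4a4 (-0.14, adjusted p = 0.922) and Ntsr2 (-1.70, adjusted p = 0.156). When any of the 5 libraries was left out, the oligodendrocyte count stayed at 15 and the microglia count at 17 or 18, while the astrocyte count was 8 without glia replicate 1.

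The 2 pools with both fractions gave different sizes for these glial differences. For oligodendrocyte markers the median log2 ratio of neurons over glia was -7.40 in pool 1 and -4.14 in pool 3, for microglia -6.10 and -3.42, and for astrocytes -4.48 and -2.38. The 12 neuron markers had 2.14 in both pools. Summed over the list, oligodendrocyte markers made up 323, 449 and 591 normalized CPM in neurons and 47160 and 10590 in glia. RNA input and olfactory receptor counts also differed between the 2 glia libraries, and their part in the difference was not tested.

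Markers of each fraction were also counted in the other, and RNA carried over by the sort cannot be told apart here from expression by the sorted cells themselves. The neuron markers were in glia at a median of 24.0% of their neuron level (range 12.2% to 97.0%). In the reverse direction, neurons held a median of 1.52% of the glial level of oligodendrocyte markers, 2.08% of that of microglia, 3.61% of that of precursors and 7.38% of that of astrocytes. The glial shares differed between the pools. Taken within pool 3 they were 5.45% for oligodendrocytes, 8.55% for microglia, 9.81% for precursors and 18.6% for astrocytes, against 0.528%, 1.30%, 1.11% and 4.18% within pool 1. The neuron markers were in glia at 22.6% within pool 1 and 22.7% within pool 3. Against the mean of the neuron libraries they were at 29.55% in glia replicate 1 and 16.91% in glia replicate 3.

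Vascular and other lists were low in all libraries. Endothelial markers summed to 70.9, 53.6 and 55.1 normalized CPM in neurons and 67.9 and 73.9 in glia, and 0 of 12 were lower in neurons. With the pool as a block 2 were lower, Cldn5 (adjusted p = 0.0374) and Flt1 (adjusted p = 0.0485). Egfl7, whose span overlaps those of Agpat2 and Gm20532, was higher in neurons (2.43 ± 0.54, adjusted p = 0.0111). Of pericyte and smooth muscle markers 3 of 11 were lower (Pdgfrb, Kcnj8 and Vtn), of leptomeningeal fibroblast markers 3 of 7 (Col1a2, Col3a1 and Slc6a13), and of blood and perivascular immune markers 3 of the 10 tested (Mrc1, Lyve1 and F13a1). The fibroblast marker Dcn lay the other way, at 111, 30.1 and 25.8 normalized CPM in neurons and 17.4 and 9.07 in glia (2.07 ± 0.85, adjusted p = 0.199), and was called higher with the pool as a block (adjusted p = 0.00816). Without glia replicate 1 these counts were 0, 0 and 1, and the pericyte and blood counts were also 1 each without neurons replicate 1 or 2. Without neurons replicate 3 the blood count was 1. Among 12 ependymal and choroid plexus markers Foxj1 was lower (-3.77) and Kl higher (1.97). Over all genes tested 4.70% were called higher and 4.17% lower, shares to set beside the counts of these lists. The calls of Egfl7, Kl and Foxj1 were lost without glia replicate 1, and those of Egfl7 and Kl also with the scaling from abundant genes.

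**Figure D3:**
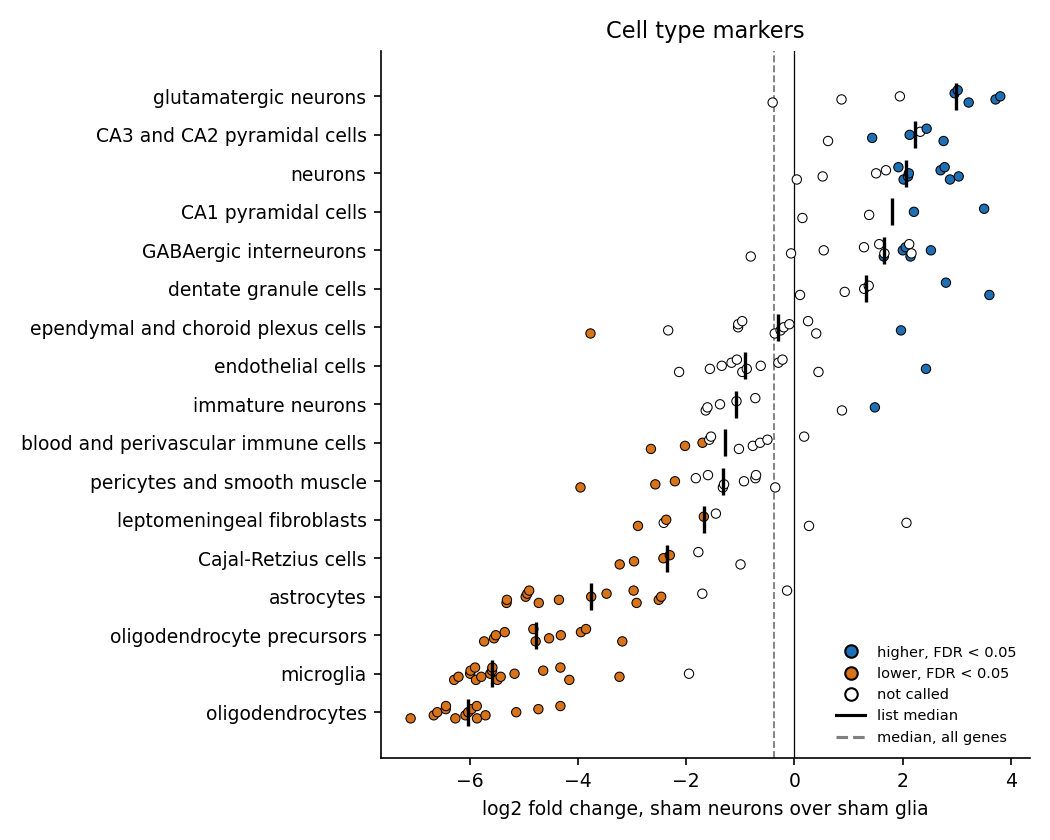
Log2 fold change (sham neurons over sham glia) of each tested member of 17 cell type marker lists, ordered by list median (bar). Filled points were called at FDR below 0.05, and the dashed line is the median of all genes tested (-0.37), which turned to 0.62 without glia replicate 3. The medians of the neuron lists lie to the right, except those of immature neurons (-1.07) and Cajal-Retzius cells (-2.36), and those of the 4 glial lists to the far left.

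Genes of synaptic transmission were mostly higher in neurons. Of 17 genes of vesicle release 15 were higher (median log2 fold change 2.10), and the others were Vamp2 (0.50, adjusted p = 0.755) and Sv2a (-0.15, adjusted p = 0.941). Rims1, a scaffold of the active zone, was at 268, 267 and 269.6 normalized CPM in neurons and 27.5 and 41.0 in glia (2.97 ± 0.48). The list count was 9 without neurons replicate 1 and 6 without glia replicate 3. Of 19 voltage-gated channel genes 14 were higher (median 2.47), among them the sodium channels Scn1a (2.56), Scn2a (2.78) and Scn8a (2.65).

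Receptors for glutamate split by subunit. Of 15 ionotropic receptor genes 9 were higher (median 1.79) and 1 was lower. Gria1, an AMPA receptor subunit, was at 1876, 1749 and 1741 normalized CPM in neurons and 117 and 192 in glia (3.54 ± 0.56), and Gria2 (2.25) and Gria3 (2.38) were higher too. Grin2c (chromosome 11, 115249169 to 115267243), an NMDA receptor subunit known from cerebellum and from astrocytes, was at 1.75, 2.53 and 7.12 in neurons and 163 and 56.1 in glia (-4.84 ± 0.81, adjusted p = 0.00233). Its paralogs Grin2a (3.79) and Grin2b (3.21) were higher in neurons, so that subunits of this receptor lay on both sides.

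Metabotropic receptors split in the same way. Of 7 genes 5 were higher in neurons, among them Grm2 (3.30), Grm5 (2.85), Grm7 (2.15) and Grm8 (2.44). Grm3, which astrocytes are known to express, was at 27.3, 19.4 and 13.96 normalized CPM in neurons and 326 and 95.8 in glia (-3.38 ± 0.72, adjusted p = 0.00822). Without glia replicate 1, 3 of the 7 genes were higher and Grm3 was not called (adjusted p = 0.0981), and with the scaling from abundant genes 3 were higher.

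Of 12 subunits of the GABA-A receptor 9 were higher in neurons and 0 lower (median 2.65). Gabrd, a subunit outside the synapse that is typical of granule cells, was at 115, 49.1 and 57.8 normalized CPM in neurons and 4.47 and 7.14 in glia (3.67 ± 0.71). Gabra2 (2.53) was higher as well, while Gabrg1 was at 24.1, 7.29 and 6.45 against 88.2 and 18.1 (-2.08, adjusted p = 0.158). There was 1 lower subunit under the pool block, under the scaling from abundant genes and without glia replicate 3.

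Of 16 genes of the postsynaptic scaffold and of synaptic adhesion 9 were higher (median 1.58). Shank1, a scaffold of excitatory synapses, was at 267, 187 and 223 normalized CPM in neurons and 17.6 and 24.8 in glia (3.41 ± 0.57). Shank2 (2.66) was higher too, a call lost with the scaling from abundant genes (adjusted p = 0.064), and so was Dlg4, the scaffold PSD-95 (1.38, adjusted p = 0.0479). The call of Dlg4 was lost when any of the 5 libraries was left out, with adjusted p from 0.0721 to 0.191. Of the adhesion pairs, Nrxn3 (2.60) was higher, whereas Nrxn2 (-0.62), Nlgn2 (0.19) and Nlgn3 (0.22) were not called.

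All 12 genes of transmitter and potassium clearance were lower in neurons (median -4.73). Slc1a2, the glutamate transporter GLT-1, was at 160.0, 104 and 110.2 normalized CPM in neurons and 1121 and 299 in glia (-2.51 ± 0.65, adjusted p = 0.0249). Glul, glutamine synthetase, was at 14.3, 13.7 and 15.2 against 359 and 109 (-4.02 ± 0.58), and the potassium channel Kcnj10 at 1.95, 3.04 and 2.32 against 222 and 28.6 (-5.67 ± 0.84). The call of Slc1a2 was lost without any of neurons replicates 1, 2 and 3 (adjusted p = 0.0538, 0.108 and 0.0974) or glia replicate 1 (adjusted p = 0.254). The list count was 8 without glia replicate 1.

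Cholesterol genes differed in single steps. Apoe, the lipid carrier of astrocytes and microglia, was at 50.6, 48.3 and 83.1 normalized CPM in neurons and 3584 and 684 in glia (-5.14 ± 0.87). The exporter Abca1 (-2.67) was lower in neurons too, 3 of 17 genes in all, and Cyp46a1, the neuronal enzyme that turns cholesterol over, was higher at 869, 426 and 386 against 96.1 and 68.1 (2.77 ± 0.53). The other 13 genes were not called, the synthesis genes Hmgcs1 (-1.54) and Sqle (-1.26) among them. With the pool as a block 8 genes were lower, Hmgcs1 and Sqle included (adjusted p = 0.0207 and 0.0193), with the scaling from abundant genes 10, and without glia replicate 3 7. Without glia replicate 1, neurons replicate 1 or neurons replicate 3 the count was 1.

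The family of the sort antigen moved together. Rbfox1 was at 239, 199 and 145 normalized CPM in neurons and 41.2 and 24.4 in glia (2.56 ± 0.46, adjusted p = 0.00329), and Rbfox2 at 189, 147 and 161 against 33.5 and 31.2 (2.35 ± 0.38, adjusted p = 0.00202). Per kilobase of exon, the mean levels in neurons were 39.4 normalized CPM for Rbfox3, 44.2 for Rbfox1 and 20.3 for Rbfox2. Of 25 RNA-binding splicing regulators 13 were higher (median 1.72), Celf2 to Celf6 and Nova2 among them. Qk, quaking, a regulator of myelin transcripts, was lower at 207, 146 and 167 in neurons against 2680 and 823 in glia (-3.33 ± 0.59, adjusted p = 0.00288). The number of lower genes was 3 with the pool as a block, 3 without glia replicate 3, 4 with the scaling from abundant genes and 0 without both low-input libraries (glia replicate 1 and a kainate library), where the call of Qk was lost (adjusted p = 0.0657).

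Transcription factors divided by lineage. Of 12 neuronal factors 7 were higher and 0 lower (median 1.97). Neurod2 was at 296, 216 and 223 normalized CPM in neurons and 16.1 and 21.1 in glia (3.72 ± 0.54), Neurod6 had a log2 fold change of 2.96, and Mef2c was not called (1.14, adjusted p = 0.242; with the pool as a block, adjusted p = 0.0178). Of 21 glial factors 15 were lower (median -3.47). Sox10, of the oligodendrocyte lineage, was at 4.83, 10.6 and 15.5 against 939 and 274 (-5.87 ± 0.81) and Olig2 at 2.55, 7.64 and 7.87 against 407 and 163 (-5.55 ± 0.93). Sox9, of astrocytes, was at 10.8, 8.44 and 7.25 against 163 and 32.8 (-3.47 ± 0.72), a call lost without glia replicate 1 (adjusted p = 0.133). The count of neuronal factors was 4 without neurons replicate 1 or either glia library, and that of glial factors 10 without glia replicate 1.

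Ligands and receptors were read in pairs, and the fractalkine pair lay on opposite sides. Cx3cl1, fractalkine, was at 1443, 645 and 572 normalized CPM in neurons and 136 and 90.0 in glia (2.97 ± 0.58, adjusted p = 0.00515), while its receptor Cx3cr1 had a log2 fold change of -6.00. Of the ligands of Csf1r, Il34 was at 84.9, 23.6 and 37.5 in neurons and 15.8 and 8.83 in glia (1.98 ± 0.60, adjusted p = 0.0581; with the pool as a block, adjusted p = 0.00112). Csf1 was lower in neurons, at 32.6, 22.8 and 32.0 against 170.0 and 66.6 (-2.02 ± 0.48, adjusted p = 0.0163). Il34 also passed the test without neurons replicate 2 (adjusted p = 0.0371) and with the scaling from abundant genes (adjusted p = 0.0344), and the call of Csf1 was lost without neurons replicates 2 or 3 or glia replicate 1 (adjusted p = 0.0795, 0.0517 and 0.192).

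Bdnf, a neurotrophin, was at 101, 36.5 and 35.3 normalized CPM in neurons and 9.39 and 6.45 in glia (2.86 ± 0.60, adjusted p = 0.00781), while its receptor Ntrk2, whose truncated form astrocytes make, was at 393, 379.8 and 333 against 636 and 222 (-0.22, adjusted p = 0.876). Nrg3 was higher in neurons (3.33 ± 0.58), and of the receptors of the ErbB family Erbb3 was lower (-5.31 ± 0.89) and Erbb4, which binds Nrg3, was not called (-0.78, adjusted p = 0.36). Of 21 ligands 5 were higher and 4 lower (Csf1, Tgfb1, Fgf1 and Bmp4). The median of the ligands was 0.23 and turned negative without neurons replicate 1 (-0.254), without glia replicate 3 (-0.09), with the sham libraries alone (-0.153) and with the scaling from abundant genes (-0.47). Of 23 receptors 12 were lower, with a median of -1.81, and Ntrk3 was higher (1.82 ± 0.37). Without glia replicate 1 the counts were 3 ligands higher, 1 lower and 8 receptors lower, and 3 ligands were higher without neurons replicate 1 or glia replicate 3. With the scaling from abundant genes 7 ligands were lower. Fgf1 (-2.80) and Bmp4 (-3.85) lost their calls without glia replicate 1 (adjusted p = 0.148 and 0.112).

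**Figure D4:**
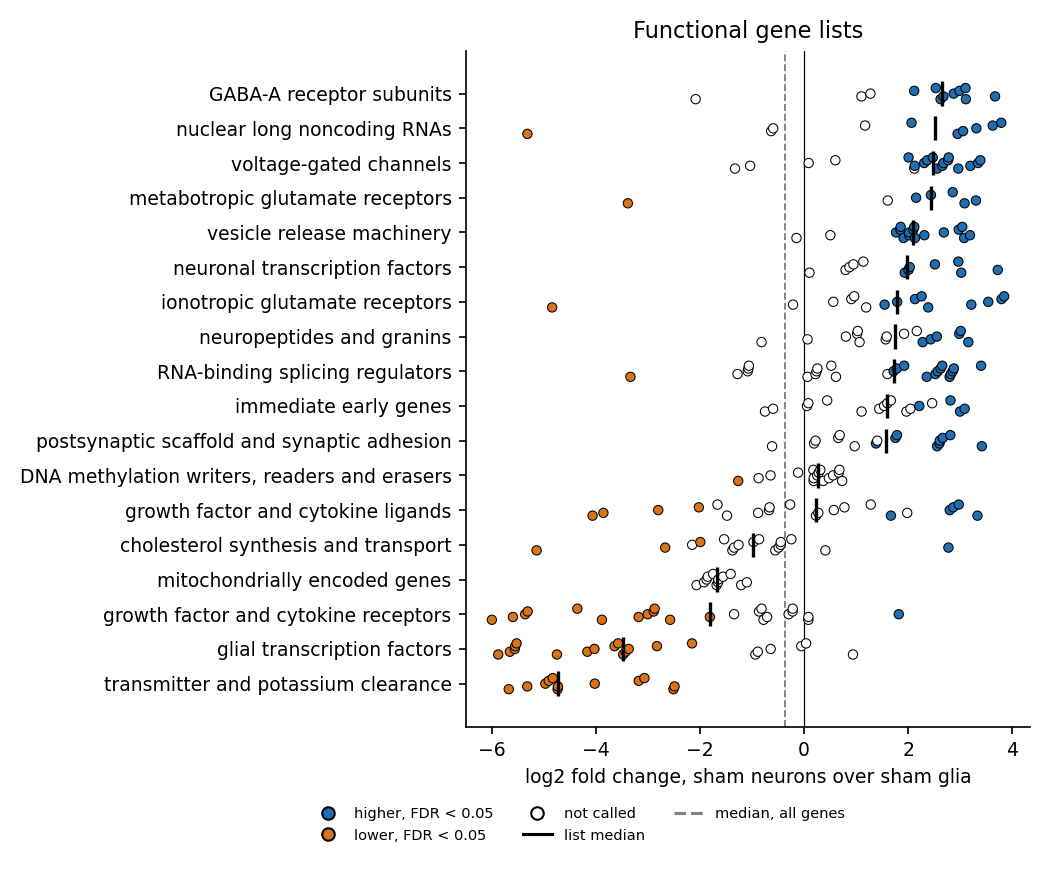
Log2 fold change (sham neurons over sham glia) of each tested member of 18 functional gene lists, ordered by list median (bar). Filled points were called at FDR below 0.05, and the dashed line is the median of all genes tested (-0.37), which turned to 0.62 without glia replicate 3. Grin2c, Grm3, Qk and Neat1 are the only members called lower in 4 lists with medians to the right.

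Of 16 neuropeptides and granins 6 were higher (median 1.75). Cck was at 301, 69.6 and 66.6 normalized CPM in neurons and 24.4 and 12.6 in glia (2.98 ± 0.75, adjusted p = 0.0224), and the granin Scg2 at 420.3, 136 and 139 against 36.0 and 21.7 (3.01 ± 0.61, adjusted p = 0.00634). Sst, somatostatin of interneurons, was at 240.4, 37.3 and 31.1 against 40.4 and 5.603 and was not called (2.16 ± 1.02, adjusted p = 0.293). In these 3 genes replicate 1 was the highest library of each fraction, and with the pool as a block Sst passed the test (adjusted p = 0.000648), as did Npy (adjusted p = 0.00236), and 10 of 16 genes were higher. The call of Cck was lost without neurons replicate 1 or glia replicates 1 or 3 (adjusted p = 0.074, 0.0583 and 0.11). The list count was 3 without neurons replicate 1 and 1 without glia replicate 3.

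Of 17 immediate early genes, which neurons switch on when active, 4 were higher (median 1.597), namely Egr1, Egr3, Egr4 and Npas4. Egr1 was at 97.0, 49.9 and 33.0 normalized CPM in neurons and 17.1 and 8.78 in glia (2.21 ± 0.62, adjusted p = 0.0385), a call lost without neurons replicates 1 or 2 or either glia library, with adjusted p from 0.0641 to 0.168. Fos was at 21.9, 9.91 and 7.96 against 5.05 and 4.07 (1.53 ± 0.65, adjusted p = 0.22) and Arc at 221, 103 and 115 against 71.2 and 36.6 (1.44 ± 0.48, adjusted p = 0.089). The neuron libraries lay wholly above the glia libraries in 12 of the 17 genes, against 14.4% of all genes tested. With the pool as a block 11 were higher, Fos and Arc included (adjusted p = 0.0187 and 0.00147). The count was 2 without neurons replicate 1, neurons replicate 2 or glia replicate 1.

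Of 16 genes that write, read or erase DNA methylation 1 was called, a share below the 8.87% of all genes (list median 0.27). Tet1, which oxidizes methylated cytosine, was at 31.9, 36.8 and 36.7 normalized CPM in neurons and 104 and 65.7 in glia (-1.27 ± 0.36, adjusted p = 0.0415). Its call was lost without any of the neuron libraries (adjusted p = 0.134, 0.106 and 0.112) or glia replicate 1 (adjusted p = 0.231). Dnmt3a, a de novo methyltransferase, was at 296, 289 and 282 against 297 and 169 (0.31 ± 0.39, adjusted p = 0.77).

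Of 10 long noncoding RNAs held in the nucleus, 6 were higher in neurons, 1 was lower and 3 were not called, and the higher count was the same when any of the 5 libraries was left out. Meg3, of the imprinted Dlk1-Dio3 region, was at 15920, 8381 and 8292 normalized CPM in neurons and 801 and 776 in glia (3.78 ± 0.66, adjusted p = 0.00277), and Rian and Mirg of the same region had log2 fold changes of 2.95 and 3.05. Neat1 (chromosome 19, 5824708 to 5845478), the scaffold of paraspeckles, was at 10.7, 40.4 and 102 in neurons and 2125 and 1930 in glia (-5.31 ± 0.83, adjusted p = 0.00176). Both glia libraries were close for Neat1, while the neuron libraries spread. Malat1 was at 6853, 2055 and 1845 against 9920 and 1198, with overlapping groups (-0.63, adjusted p = 0.801).

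Protein-coding genes that span under 10 kb had a median log2 fold change of -0.46, and 3.79% of 7026 were higher and 4.58% lower. Genes over 300 kb had a median of 0.91, and 34.8% of 558 were higher and 8.42% lower. Among genes with a mean of at least 10 normalized CPM in either group the medians were 0.30, 0.20, 0.22 and 0.34 in the 4 shorter classes and 1.09 above 300 kb. The medians above 300 kb were 0.93 in pool 1 and 0.98 in pool 3, and those under 10 kb were 0.065 in pool 1 and -0.406 in pool 3. No test was made, since genes are not replicates.

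**Figure D5:**
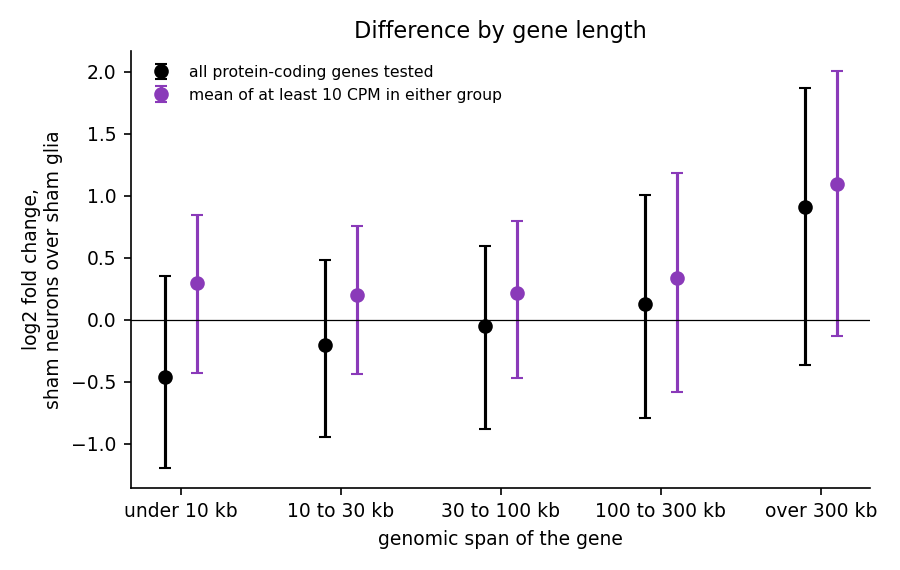
Median log2 fold change (sham neurons over sham glia) of protein-coding genes by genomic span, for all 20945 tested and for the 11651 with a mean of at least 10 normalized CPM in either group. Bars run from the lower to the upper quartile; genes over 300 kb have medians of 0.91 and 1.09, above all shorter classes.

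In the kainate libraries, which come from other mice but were fitted in the same model, 6.05% of genes were higher and 4.04% lower in neurons. Of the 1915 genes higher in sham neurons, 1909 (99.7%) had the same sign there and 1704 (89.0%) were also called. Of the 1698 lower genes, 1677 (98.8%) had the same sign and 1288 (75.9%) were called. The same-sign share over all genes tested was not taken. Since the kainate libraries entered the model that selected these genes, the shares are no independent replication. In the edgeR test of the difference between the contrasts 0 genes were called (0.00%, smallest adjusted p = 0.0705), with 370 genes (0.909%) at an unadjusted p below 0.05. That share lay below the threshold itself, so the test was conservative, and its outcome does not show that the contrasts were equal. It was made without a block, and its outcome with the pool as a block is not given.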

How the data were processed

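Nuclei were sorted on NeuN, and polyadenylated RNA was amplified with SMART-Seq v4, a kit that does not mark the strand and adds no molecular identifiers. The authors trimmed reads with Trim Galore (version 0.4.3), aligned them to mm10 and deposited raw counts of uniquely mapped reads per gene for 11 mRNA libraries, without normalization. The study sequenced on more than 1 platform, with single or paired reads, and which library ran on which is not given in the sources used here. Reads of overlapping genes cannot be told apart by strand. Bisulfite files were not used here.

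Of 53379 genes, 105 have no symbol and were dropped, and filterByExpr kept 40714. Counts were scaled by TMM and fitted with the edgeR quasi-likelihood test (edgeR 4.0.16, R 4.3.3) with 4 group means over all 11 libraries, which leaves 7 residual degrees of freedom. The test of sham neurons against sham glia is two-sided, with Benjamini-Hochberg adjustment over all genes tested, and genes with an adjusted p below 0.05 were called. Normalized CPM uses the TMM library sizes, SE is the log2 fold change divided by the root of F, and the common coefficient of variation was 0.6. Replicates are pools of mice. Samples with the same number are taken to share mice, since each pool was sorted into both fractions. Their deviations from the group means correlated at 0.24 to 0.668 in all 5 pairs. Libraries also differed by replicate number alike in both treatments, so these correlations cannot show that mice are shared. The deviations of the 2 sham glia libraries mirror each other, so the sham values are not independent. The study's workflow has no block, and the blocked fit is an alternative.

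Alternatives were DESeq2 (1.42.0) and its size factors, other filters, fits and thresholds, low RNA input as a covariate, blocks, leaving out each library, and TMM from abundant genes, added after seeing the data. The model was tested on simulated data. Coordinates come from GENCODE vM21 (GRCm38). Named genes in each direction are the 12 called genes of smallest p and 8 called genes of largest fold. The ranking by fold took only genes with a mean of at least 10 normalized CPM in the higher group. Gene models such as Gm and Rik symbols, miRNA genes and pseudogenes were left out of both rankings. Further named are 6 markers, the Rbfox family, the first 3 members of each list and members called against their list. The members and lists were chosen with earlier results of these data known, and lists are described by counts without a set test. Some genes of the lists are counted but not reported here by name.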

Additional observations from a re-analysis of the deposited data

How the results depend on the processing

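No call took the opposite direction in any alternative run. The number of genes higher in neurons moved from 1915 to 2910 with DESeq2, 1055 with the sham libraries alone, 4270 with the pool as a block, 4260 with pools 1 and 3 alone and this block, and 473 without both low-input libraries (glia replicate 1 and a kainate library). The number lower moved from 1698 to 2711 with scaling from abundant genes, 887 when low input entered as a covariate and 460 when those libraries were left out. An FDR of 0.25 gave 3708 and 3108, and the replicate number as a block 4621 and 3206. Leaving out 1 library gave 1108 to 1732 higher and 708 to 2070 lower genes. The other alternatives kept both counts within 1.5 times. The median of the growth factor ligands (0.23) turned to -0.153 with the sham libraries alone and -0.47 with scaling from abundant genes, and ran from -0.254 to 0.299 when 1 library was left out. Of 2839 values of the 142 named genes under the alternatives, 2597 stayed on their side of the threshold, 143 lost and 99 gained the call, and 71 of 108 called genes kept it throughout. The causes were not tested. Counts of higher members that moved with the pool block and are not given above were ionotropic receptors (9 to 12), the postsynaptic list (9 to 13), neuronal factors (7 to 10), neuron markers (8 to 10) and glutamatergic markers (5 to 7), and other lists moved by 1 or 2 genes. Leaving out both low-input libraries leaves 1 sham glia library, and many lists then lost most or all of their calls. These were the lists for dentate granule cells, immature neurons, Cajal-Retzius cells, endothelial cells, pericytes, fibroblasts, ependymal cells and blood cells. They also included neuropeptides, immediate early genes, DNA methylation genes, astrocyte markers and the clearance list. In simulated counts of this contrast over 37189 genes, 75% of changes of 4 and 16% of changes of 2 on the log2 scale were recovered. Only 100 genes were changed at each size and all others were flat, whereas 8.87% of genes were called in the data. The adjustment is stricter when so few genes change, so these shares are not the sensitivity of the contrast itself.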

Other observations

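Other classes of transcripts were called at shares read against those of all genes (4.70% higher and 4.17% lower). Of 2766 gene models marked TEC (to be experimentally tested), 181 were higher (6.54%) and 52 lower (1.88%) in neurons, and 155 of the higher and 35 of the lower lie inside a protein-coding gene, whose reads cannot be told apart from theirs without strand. Of 335 miRNA genes 18 were higher (5.37%) and 3 lower (0.896%), with 11 and 2 inside a coding gene. Of 4302 lincRNA genes 67 were higher (1.56%) and 62 lower (1.44%). Of 348 snoRNA genes 7 were higher (2.01%) and 0 lower. The lincRNA and snoRNA shares lay below those of all genes.

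Mitochondrially encoded genes, which lie outside the nucleus, were not called in any direction among the 12 tested (edgeR, 0 also at an unadjusted p below 0.05, median log2 fold change -1.67), with 3 lower when the pool was a block. Olfactory receptor genes had a median log2 fold change of -1.10 over 1053 tested, with 985 negative values and 1 called lower, and their mean level was 0.325, 0.691 and 0.810 normalized CPM in neurons and 0.340 and 2.11 in glia.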
